A study of Mus musculus with 10 samples.

Results

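The genes of the Trem2 and Tyrobp receptor module were followed in mouse microglia: 7 genes of the 18292 gene symbols in the count tables. They were taken by name, as the receptors Trem2 and Trem1, the adaptors Tyrobp (DAP12) and Hcst (DAP10), the kinase Syk, the effector Plcg2 and the inhibitor Inpp5d (SHIP1). Of these, 6 were listed in every library, and Trem1 was missing from 3 tables, where it was counted as 0. All 7 passed the filter on low counts, Trem1 only through slice libraries.

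Single-cell RNA was counted in 10 libraries of C57BL/6 microglia, 2 for each of 5 groups. Adult microglia came straight from the brain. In vitro microglia came from a mixed glial culture of dissociated neonatal brain kept for 3 weeks, and were collected from the medium. Slice microglia came from slices of neonatal brain after 1 day, 1 week or 3 weeks in culture. No group carried a transgene or a drug, but the slice medium received the growth factor hPDGF at each medium change. The paper lists no such addition for the mixed glial culture. Cells of all groups were sorted as live, CD11b high and CD45 intermediate. Several slices were pooled for a sort, and culture and adult groups differed in age as well as in surroundings. Nothing in the labels ties the libraries of a group to separate animals or cultures, so the p-values measure only the spread between these libraries.

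Trem2 is a surface receptor of myeloid cells that binds lipids, lipoproteins and other ligands, and it has no signalling tail of its own. It pairs with Tyrobp, whose ITAM motif is phosphorylated and recruits the kinase Syk. Syk activates Plcg2 and other effectors, Hcst adds a PI3-kinase branch, and Inpp5d removes a phosphate from the lipid that PI3-kinase makes, which limits the signal. In microglia the module is known for phagocytosis, lipid handling and the response to damage, and variants of several of its genes are linked to Alzheimer's disease. Trem1, a relative of Trem2 that uses the same adaptor, is known mainly from neutrophils and monocytes.

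The 7 genes lie on 5 chromosomes of the mm10 build, by the GENCODE annotation of the matching assembly. Trem1 (chromosome 17, 48232768 to 48246924) and Trem2 (chromosome 17, 48346401 to 48354147) share a cluster, both on the plus strand and 99476 bases apart. Tyrobp (chromosome 7, 30413760 to 30417585, plus strand) and Hcst (chromosome 7, 30417712 to 30419854, minus strand) lie tail to tail with 126 bases between their 3' ends, the end that the 3' kit reads. Inpp5d, Plcg2 and Syk lie on chromosomes 1, 8 and 13.

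The 250 bases before the start of 3 of the genes are shown. Trem2 and Inpp5d had the highest correlation of any pair of the 7 genes across libraries. Trem1, which shares a cluster with Trem2, had most of its UMIs in the 1 day slices in cells rich in neutrophil RNA. Sequences are from RefSeq (GRCm38.p6), plus strand, with the letters GAGGAA, the core bound by the myeloid factor PU.1, or its reverse complement TTCCTC in capitals.
Trem2, chr17:48346151-48346400: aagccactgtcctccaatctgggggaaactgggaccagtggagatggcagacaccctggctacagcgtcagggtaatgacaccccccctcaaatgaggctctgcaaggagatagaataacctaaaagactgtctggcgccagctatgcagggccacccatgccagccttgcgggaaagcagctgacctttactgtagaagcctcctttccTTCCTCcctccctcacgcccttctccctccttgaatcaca
Inpp5d, chr1:87620062-87620311: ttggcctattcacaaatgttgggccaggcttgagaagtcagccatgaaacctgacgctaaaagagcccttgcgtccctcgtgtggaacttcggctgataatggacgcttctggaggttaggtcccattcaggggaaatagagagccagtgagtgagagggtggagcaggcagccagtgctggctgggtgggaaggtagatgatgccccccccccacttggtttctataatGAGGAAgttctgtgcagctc
Trem1, chr17:48232489-48232738: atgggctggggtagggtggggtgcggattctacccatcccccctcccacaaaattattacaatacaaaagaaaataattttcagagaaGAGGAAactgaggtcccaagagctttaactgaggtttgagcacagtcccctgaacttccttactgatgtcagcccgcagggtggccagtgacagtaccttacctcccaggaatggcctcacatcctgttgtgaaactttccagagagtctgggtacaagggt

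RefSeq promoters were matched for 6 of the 7 genes, 7 windows in all since Syk has 2; Tyrobp was not matched. The 6 letters stood once in 4 of the 7 windows, those of Trem2, Inpp5d, Trem1 and the second start of Syk, against 23.3% of all 32851 windows of the same length. A match is a description of letters and not of a bound site.

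The libraries held 61 to 3799 cells after filtering, 19059 in all, with a median of 1858 to 13966 UMIs (unique molecules) per cell. Every one of 10 microglial markers was detected in every library, but their summed level fell from 32333 and 32508 CPM (UMIs of a gene per 1e6 UMIs of the library) in the adult libraries to between 2743 and 10053 in the cultures. In the in vitro libraries the 8 markers of brain border macrophages summed to 4528 and 4397 CPM against 14.4 and 9.41 in the adult ones, and to between 135 and 481 CPM in the slice libraries. Neutrophil markers summed to 8023 and 23061 CPM in the 1 day slices and to 41007 and 970 in the 1 week slices, against 1.62 to 8.72 elsewhere. Cells with at least 1% of their UMIs from neutrophil markers, called neutrophil-high here, made up 13.7% and 11.5% of the 1 day cells and 16.9% and 1.64% of the 1 week cells, and none were found in the other groups. This class is a range set by the limit: 6 and 12 cells of the 1 day libraries and 10 of slice 1 week replicate 1, which has 25 neutrophil-high cells, lay near it, at 0.8% to 3%. In slice 1 day replicate 2 and slice 1 week replicate 1, 99.7% and 100% of cells had UMIs of at least 3 neutrophil markers. A UMI in these libraries therefore need not come from the RNA of the cell it is counted in, which bears on the values for neutrophil-high and other cells below and was not tested. The 1 week slices had only 148 and 61 cells, so their values are the least precise. At most 21 cell barcodes were shared by any 2 libraries. Levels are given as CPM after TMM scaling, and in summed libraries fewer cells of a type and less RNA per cell cannot be told apart.

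Trem2, the receptor, was high in adult microglia, was at its lowest in slices after 1 day, and overlapped the adult libraries again after 3 weeks. It stood at 3229 and 2588 CPM in the adult libraries, at 918 and 827 CPM after 1 day, at 1848 and 1760 CPM after 1 week and at 3193 and 3823 CPM after 3 weeks. In vitro libraries held 1372 and 1414 CPM. The 1 day, 1 week and in vitro libraries all lay below every adult and 3 week library, while the adult and 3 week libraries overlapped. Against adult, Trem2 was 3.33-fold lower after 1 day (log2 fold change -1.74 ± 0.16 SE, adjusted p = 1.64e-05, edgeR), 2.09-fold lower in vitro (-1.06 ± 0.16, adjusted p = 0.000271) and 1.61-fold lower after 1 week (-0.69 ± 0.16, adjusted p = 0.00913).

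After 3 weeks Trem2 was not called different from adult (log2 fold change 0.27, 95% interval -0.08 to 0.62, adjusted p = 0.204). These libraries carry 2 study labels, shared by 1 adult and 1 slice library each, and the ratio of slice to adult was 0.989 within one and 1.48 within the other. Between 1 day and 3 weeks Trem2 rose 4.02-fold (2.01 ± 0.17, adjusted p = 8.16e-05), and in vitro cells had 2.52-fold less than 3 week slices (-1.33 ± 0.16, adjusted p = 0.000163). In the order 3 weeks, adult, 1 week, in vitro, 1 day, the neighbours that were called different were adult and 1 week, and in vitro and 1 day (0.68 ± 0.16, adjusted p = 0.00811). The second of these calls was lost without slice 1 day replicate 2 (adjusted p = 0.0665) and, on fold size alone, with library size as scaling (0.49). The pair 1 week and in vitro was not (-0.37 for in vitro against 1 week, interval -0.73 to -0.02, adjusted p = 0.144).

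The fall after 1 day was nearly as large without neutrophil-high cells (Trem2 log2 fold change -1.67, adjusted p = 1.22e-05, edgeR). Within the 1 day libraries Trem2 stood at 102 and 185 raw CPM in neutrophil-high cells against 1000 and 901 in the other cells. The 1 week difference from adult lost its call when cells with at least 3 monocyte markers were removed as well (-0.55, adjusted p = 0.0257, under the 1.5-fold limit). It also lost it without adult replicate 1 (-0.48, adjusted p = 0.0892) and without slice 1 week replicate 1 (-0.70, adjusted p = 0.0694).

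**Figure D1:**
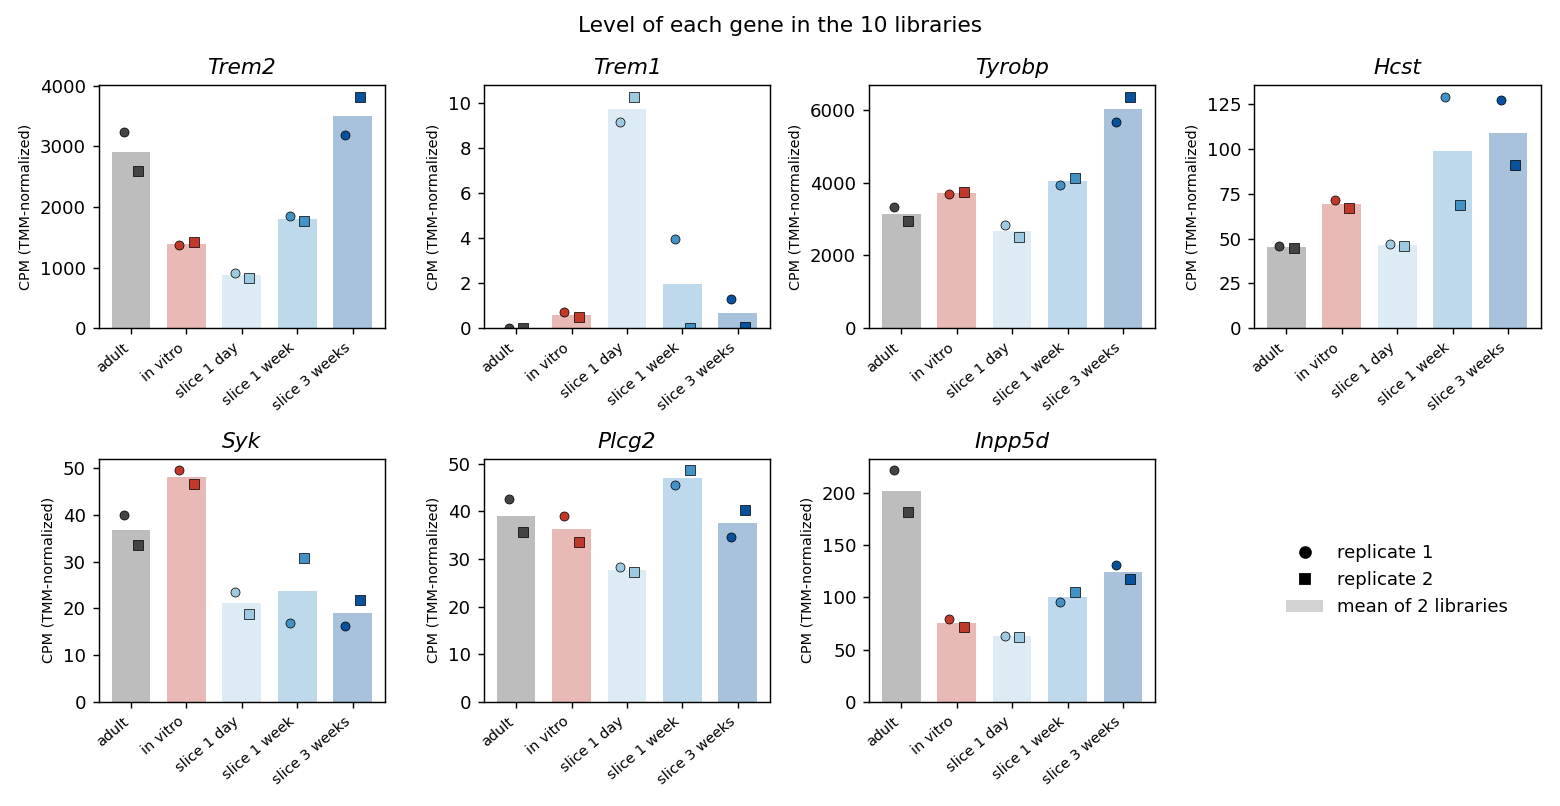
Level of each gene, in CPM after TMM scaling, in the 10 libraries by group; circles are replicate 1, squares replicate 2 and bars the mean of 2 libraries, on axes that start at 0 and differ between panels. Trem2 and Inpp5d are lowest after 1 day and rise with slice time, Tyrobp is highest after 3 weeks, and Trem1 reaches 9.17 and 10.3 CPM after 1 day only.

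Counted per cell, Trem2 was found almost everywhere at full depth, from 83.6% of cells in 1 library of the 1 day slices to 99.9% in vitro, so the shares were compared with every cell thinned to 1000 UMIs. At that depth 96.1% and 94.4% of adult cells had a Trem2 UMI. The share was 49.8% and 48.8% after 1 day, 71.6% and 76.3% after 1 week, 93.4% and 94.7% after 3 weeks, and 69.8% and 69.9% in vitro. The exact 95% binomial intervals of the 1 day libraries, 45.4% to 54.2% and 45.7% to 51.9%, did not reach those of any other library, and these intervals cover counting error only. For Tyrobp the share was 89.5% to 97.8% in all 10 libraries, close to the ceiling of this measure, and says little about its level, which ran from 2.81 to 5.80 UMIs per thinned cell. Thinning left out 66 and 205 adult cells and 2 cells of a 1 week library that held fewer UMIs.

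**Figure D2:**
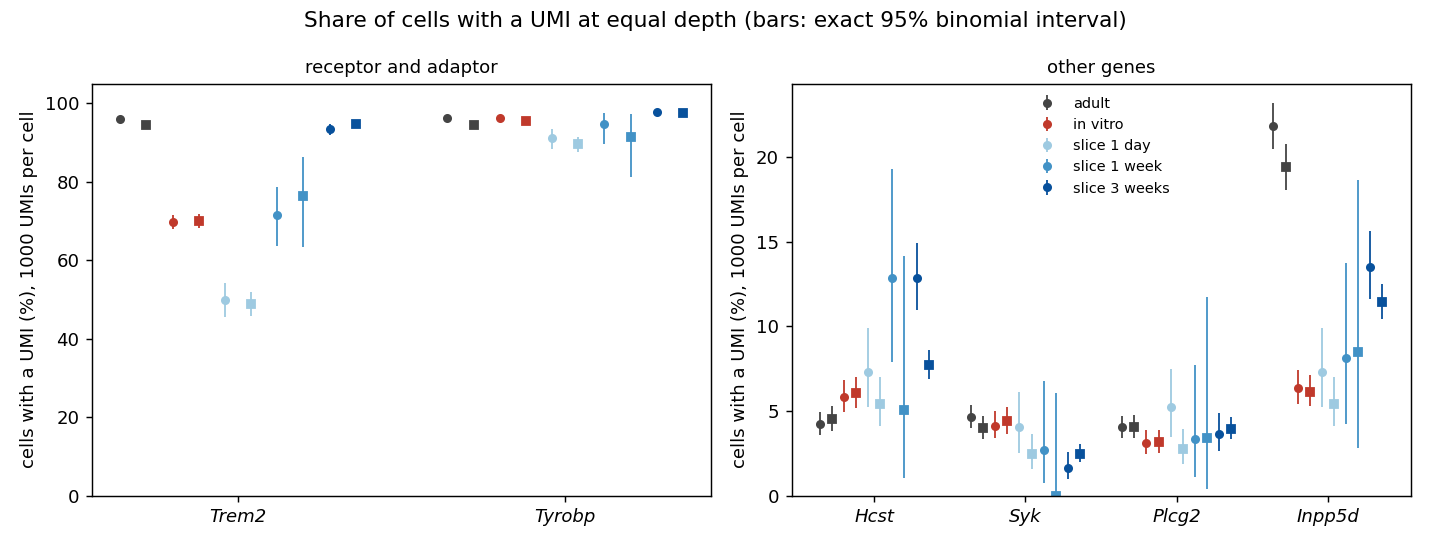
Share of cells with at least 1 UMI of each gene, in percent, after every cell was thinned to 1000 UMIs; circles are replicate 1, squares replicate 2, colours the 5 groups and bars exact 95% binomial intervals. Trem2 spans 48.8% to 96.1% of cells, and Tyrobp sits near the ceiling at 89.5% to 97.8%.

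Trem1, the second receptor, was rare, and its level was highest in the 1 day slices. It was at 0 UMIs in both adult libraries (3799 and 3527 cells), at 22 and 17 UMIs in vitro, 35 and 100 after 1 day, 4 and 0 after 1 week, and 10 and 1 after 3 weeks. Only the 1 day libraries held more than 22 UMIs, and the 1 week and 3 week libraries differed within their group. Against a floor of 3 UMIs over both adult libraries, Trem1 was at least 71.3-fold higher after 1 day, a description only, since Trem1 passed the filter through those libraries. It was at least 4.17-fold higher in vitro (adjusted p = 0.0472, edgeR). The in vitro call was lost without any single adult or in vitro library (adjusted p = 0.0594 to 0.187). The 3 week difference, at least 2.69-fold, was not called (adjusted p = 0.108), but it was in 4 of 14 other settings: without slice 3 weeks replicate 2, the library with 1 UMI (adjusted p = 0.00713), with DESeq2 (0.0145), without the filter on low counts (0.00260) and with the study label as a covariate (0.0112). The 1 week difference, at least 20.4-fold, rests on the 4 UMIs of 1 library.

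Most Trem1 UMIs of the 1 day slices lay in neutrophil-high cells, 23 of 35 and 65 of 100, and so did all 4 of the 1 week slices. In these cells Trem1 stood at 130, 82.3 and 26.8 raw CPM, against 3.44, 4.0 and 0 in the other cells of the same libraries. Among other cells the ratio of Trem1 to the neutrophil gene S100a8 was 9.38 and 2.02 per 1000 S100a8 UMIs in the 1 day libraries, above the 1.33 and 0.718 within neutrophil-high cells. The ratios of the other cells rest on 12 and 35 Trem1 UMIs. In slice 1 week replicate 1 the ratio was 0 in other cells and 0.233 in neutrophil-high cells. S100a8 is itself among the markers that set the class, which can shift such ratios. S100a9, another neutrophil gene, also stood higher in the other 1 day cells, at 474 and 749 per 1000 S100a8 UMIs against 416 and 576. The source of the Trem1 UMIs in other cells was not tested. No in vitro or 3 week cell with a Trem1 UMI had 3 neutrophil or 3 monocyte markers. The log2 fold change of Trem1 from 1 day to 3 weeks was -4.39 with all cells and -2.91 without neutrophil-high cells.

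**Figure D3:**
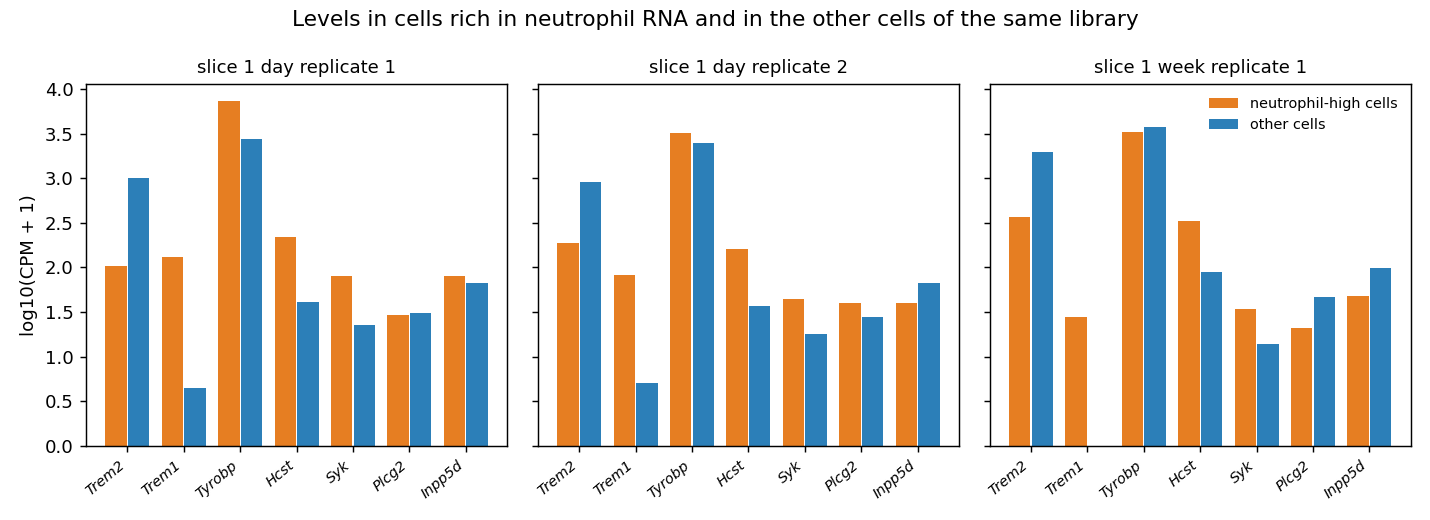
Level of each gene, as log10 of raw CPM plus 1, in neutrophil-high cells (orange) and in the other cells (blue) of the 3 libraries with at least 20 such cells. In all 3 libraries Trem2 is lower and Trem1, Hcst and Syk are higher in the neutrophil-high cells.

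Tyrobp, the ITAM adaptor, was higher in 3 week slices than in adult cells. It stood at 3330 and 2937 CPM in the adult libraries, at 2836 and 2517 CPM after 1 day, at 3936 and 4127 CPM after 1 week, at 5670 and 6365 CPM after 3 weeks and at 3693 and 3734 CPM in vitro. Both 3 week libraries lay above all others. Tyrobp was 1.92-fold higher after 3 weeks than in adult cells (log2 fold change 0.94 ± 0.14, adjusted p = 0.000591, edgeR), with ratios of 1.70 and 2.17 within the study labels. It rose 2.25-fold between 1 day and 3 weeks (1.17 ± 0.14, adjusted p = 0.000443).

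Both 1 day libraries lay below and both in vitro libraries above the adult ones in Tyrobp, but neither difference was called (log2 fold changes -0.23, interval -0.54 to 0.09, and 0.24, interval -0.07 to 0.56). Over 15 other settings these differences ran from -0.35 to 0.08 and from -0.06 to 0.44, so neither direction held in all of them. In vitro cells had 1.62-fold less Tyrobp than 3 week slices (-0.70 ± 0.14, adjusted p = 0.00364), a call lost when either in vitro library was left out (adjusted p = 0.0603 and 0.0584) and, on fold size alone, without slice 3 weeks replicate 2 (-0.55). In the order 3 weeks, 1 week, in vitro, adult, 1 day, no pair of neighbours was called, although 3 weeks and 1 week passed the p threshold (0.58, adjusted p = 0.0436), just under the fold limit, and were called in 5 of 14 other settings. Neutrophil-high cells were not poor in Tyrobp, with 7374 and 3240 raw CPM after 1 day against 2730 and 2500 in the other cells, and 3307 against 3746 after 1 week.

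The UMIs of Trem2 per 100 UMIs of Tyrobp put receptor and adaptor on 1 scale within a library, and 3' counting carries no length term. There were 97.0 and 88.1 in the adult libraries, 32.4 and 32.9 after 1 day, 46.9 and 42.7 after 1 week, 56.3 and 60.1 after 3 weeks, and 37.2 and 37.9 in vitro. Both adult libraries lay above all others, the 3 week slices included, although the CPM of Trem2 overlapped between adult and 3 week libraries. These ratios were not tested.

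Hcst, the adaptor of the PI3-kinase branch, rose in the later slices. It stood at 45.9 and 44.8 CPM in the adult libraries, at 47.2 and 45.7 CPM after 1 day, at 129 and 69.1 CPM after 1 week, at 128 and 91.0 CPM after 3 weeks and at 71.4 and 67.2 CPM in vitro. The replicates of both later slice groups were far apart, but all 4 lay above the adult libraries. Hcst was 2.40-fold higher than adult after 3 weeks (log2 fold change 1.26 ± 0.22, adjusted p = 0.00142, edgeR), 2.30-fold higher after 1 week (1.20 ± 0.25, adjusted p = 0.00505) and 1.53-fold higher in vitro (0.61 ± 0.22, adjusted p = 0.0359).

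Neutrophil-high cells held much more Hcst than the others, 220 against 40.5 and 161 against 36.2 raw CPM after 1 day and 329 against 88.0 after 1 week. Without them the 1 week difference in Hcst was 0.79 (adjusted p = 0.0159), and without slice 1 week replicate 1 it was 0.63 and not called (adjusted p = 0.218). The 3 week and adult libraries held no neutrophil-high cell. The in vitro call of Hcst was lost with library size alone as scaling (0.31, adjusted p = 0.239). It was also lost without either adult library or in vitro replicate 1 (adjusted p = 0.0695 to 0.125). The lower level in vitro than after 3 weeks (-0.65 ± 0.22, adjusted p = 0.0370) was kept in only 8 of 15 other settings. It was lost without any 1 of 3 libraries, both in vitro ones and slice 3 weeks replicate 1 (adjusted p = 0.154 to 0.244), with the study label as a covariate (0.103), with thinned cells (0.0502), with only the 2 groups in the fit (0.0612) and, on fold size alone, without the filter on low counts (-0.55). After 1 day Hcst was not called different from adult (0.03, interval -0.47 to 0.53), but it was with cells thinned to 1000 UMIs, which weights cells equally (0.76, adjusted p = 0.0437), and its sign turned without neutrophil-high cells (-0.30, adjusted p = 0.181).

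Syk, the kinase that binds the phosphorylated ITAM, was lower in 1 day and 3 week slices than in adult cells, and lower in all 3 slice groups than in vitro. It stood at 39.99 and 33.6 CPM in the adult libraries, at 23.6 and 18.9 CPM after 1 day, at 16.8 and 30.7 CPM after 1 week, at 16.3 and 21.8 CPM after 3 weeks and at 49.6 and 46.6 CPM in vitro. Every slice library lay below both adult and both in vitro libraries. Syk was 1.91-fold lower than adult after 3 weeks (log2 fold change -0.94 ± 0.20, adjusted p = 0.00465, edgeR) and 1.76-fold lower after 1 day (-0.82 ± 0.21, adjusted p = 0.00779). The 1 week difference, on 17 and 12 UMIs, was not called (-0.79 ± 0.30, adjusted p = 0.0710), but it was in 3 of 14 other settings: without slice 1 week replicate 2 (-1.17, adjusted p = 0.0332), with library size alone as scaling (-1.01, 0.0273) and without the filter on low counts (-0.85, 0.0174). In vitro cells exceeded 1 day slices by 1.20 (adjusted p = 0.00155) and 1 week slices by 1.17 (adjusted p = 0.0215) on the log2 scale, and the second call was lost without slice 1 week replicate 1 (adjusted p = 0.322). Neither held with cells thinned to 1000 UMIs (adjusted p = 0.133 and 0.271).

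In vitro cells had 2.49-fold more Syk than 3 week slices (1.32 ± 0.20, adjusted p = 0.000667), the one gene of the 7 with a called difference in that direction, and were not called different from adult (0.38, interval -0.05 to 0.82). The slice groups were not called different from each other in Syk. Neutrophil-high cells held more Syk than the others, 79.0 against 21.8 and 43.0 against 17.0 raw CPM after 1 day, and without them the 1 day difference from adult was larger (adjusted p = 0.00408). That 1 day call was lost at 1000 UMIs per cell (-0.34, adjusted p = 0.403), without adult replicate 1 (-0.64, adjusted p = 0.0810) and without slice 1 day replicate 2 (-0.58, adjusted p = 0.126). The 3 week call was lost without adult replicate 1 (-0.75, adjusted p = 0.0610).

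Plcg2, the phospholipase that Syk activates, was called in none of the 4 comparisons with adult. It stood at 42.5 and 35.7 CPM in the adult libraries, at 28.3 and 27.2 CPM after 1 day, at 45.5 and 48.6 CPM after 1 week, at 34.7 and 40.3 CPM after 3 weeks and at 39.0 and 33.6 CPM in vitro. The 1 day libraries lay below all others, and the other 4 groups lay within 33.6 to 48.6 CPM. The 1 day difference from adult passed the p threshold but not the fold limit (log2 fold change -0.50 ± 0.15, adjusted p = 0.0186, edgeR), and it was called once monocyte-marker cells were removed with the neutrophil-high ones (-0.62, adjusted p = 0.00703). It was also called without adult replicate 2 (-0.62, adjusted p = 0.0220) and with library size alone as scaling (-0.62, adjusted p = 0.00639). Over 15 other settings the 1 day difference ran from -0.62 to 0.05, so its sign did not always hold, and it was called in 3. The difference from adult was -0.06 after 3 weeks (interval -0.39 to 0.27) and -0.11 in vitro (interval -0.43 to 0.21). Between 1 week and 1 day Plcg2 was called higher (0.75, adjusted p = 0.0378), a call kept in only 4 of 14 other settings. It was lost when any 1 of the 4 libraries was left out (adjusted p = 0.103 to 0.237), with thinned cells (log2 fold change 0.02) and with the replicate number as a block (adjusted p = 0.0572). Library size alone as scaling, no filter on low counts, all barcodes and a fit of only the 2 groups also ended it (adjusted p = 0.0516 to 0.0660).

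Inpp5d, the lipid phosphatase that restrains the signal, was lower than adult in every culture. It stood at 221 and 182 CPM in the adult libraries, at 63.4 and 62.4 CPM after 1 day, at 95.9 and 104.9 CPM after 1 week, at 131 and 118 CPM after 3 weeks and at 79.3 and 71.3 CPM in vitro. No culture library reached either adult library, and the slice groups stood in the order of their time without overlap. Inpp5d was 3.21-fold lower after 1 day (log2 fold change -1.68 ± 0.15, adjusted p = 1.17e-05, edgeR), 2.68-fold lower in vitro (-1.42 ± 0.15, adjusted p = 1.88e-05), 2.03-fold lower after 1 week (-1.02 ± 0.16, adjusted p = 0.00112) and 1.62-fold lower after 3 weeks (-0.70 ± 0.14, adjusted p = 0.00350).

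Inpp5d rose 1.98-fold between 1 day and 3 weeks (0.98 ± 0.15, adjusted p = 0.00118). In the order adult, 3 weeks, 1 week, in vitro, 1 day, only adult and 3 weeks were called different among neighbours, and that call was lost without adult replicate 1 (-0.49, adjusted p = 0.0524) and, on fold size alone, without slice 3 weeks replicate 2 (-0.56) and with thinned cells (-0.57). Within the 2 study labels Inpp5d was 1.69-fold and 1.55-fold lower after 3 weeks than in adult cells. In vitro cells had 1.65-fold less Inpp5d than 3 week slices (-0.72 ± 0.14, adjusted p = 0.00316), a call lost without in vitro replicate 2 (adjusted p = 0.0840) and, on fold size alone, without slice 3 weeks replicate 1 (-0.56). With every cell thinned to 1000 UMIs, 21.8% and 19.4% of adult cells had an Inpp5d UMI, 13.5% and 11.4% after 3 weeks and 6.37% and 6.15% in vitro.

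**Figure D4:**
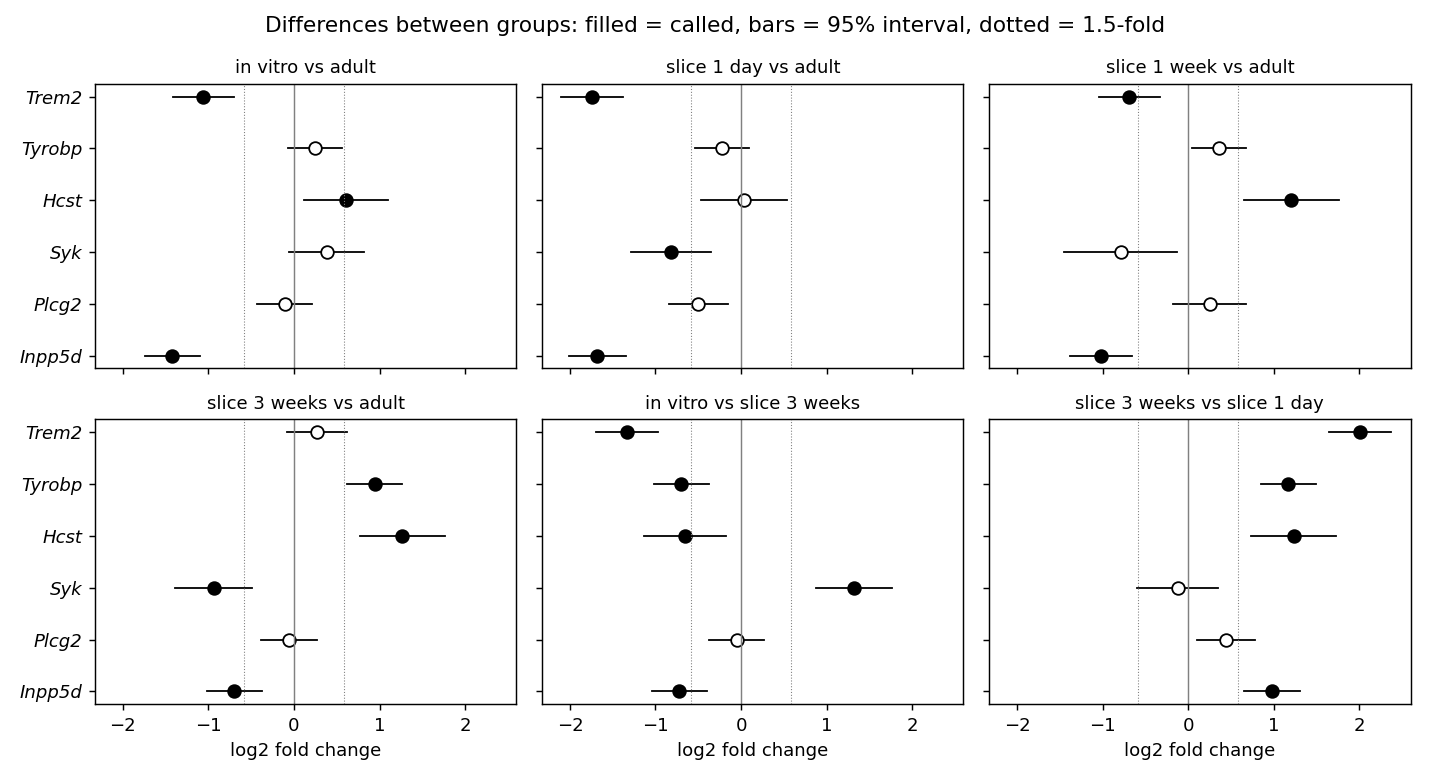
Log2 fold change of 6 genes in the 6 main comparisons, with 95% intervals; filled points passed an adjusted p of 0.05 and a fold of 1.5 (dotted lines), and Trem1 is left out because its adult count is 0. After 3 weeks Tyrobp and Hcst lie above adult, Syk and Inpp5d below it, and Trem2 and Plcg2 near it.

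Counted over the module, 4 of the 7 genes were called in vitro against adult, 2 higher (Hcst, Trem1) and 2 lower (Trem2, Inpp5d), where 50.8% of all 12157 genes tested were called. After 1 day 3 of the 6 genes other than Trem1 were called against adult, Trem2, Syk and Inpp5d, all lower, with 50.2% of all genes. Trem1 also passed the call there, but it is left out of counts against 1 day slices for the reason given above. After 1 week 3 were called, Hcst higher and Trem2 and Inpp5d lower, with 28.6% of all genes. After 3 weeks 4 were called, Tyrobp and Hcst higher and Syk and Inpp5d lower, with 35.4% of all genes. Between in vitro and 3 week slices 5 were called, Syk higher in vitro and Trem2, Tyrobp, Hcst and Inpp5d lower, with 33.2% of all genes. Between 3 weeks and 1 day 4 of the 6 were called, Trem2, Tyrobp, Hcst and Inpp5d, all higher at 3 weeks, with 26.7% of all genes. The comparisons with adult share the same 2 adult libraries. Of the remaining pairs, 2 of the 6 genes were called between in vitro and 1 day (31.9% of all genes), 1 between in vitro and 1 week (16.2%), 5 between 1 week and 1 day (10.2%) and 1 between 3 weeks and 1 week (5.72%). The calls between 1 week and 1 day were fragile: over 14 other settings Trem2 kept its call in 13, Hcst in 10, Inpp5d in 7, Tyrobp in 6 and Plcg2 in 4. The higher border macrophage markers and the lower microglial markers moved with every culture group, and their part in these differences was not tested.

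Over the 10 libraries, Trem2 and Inpp5d had a Pearson r of 0.85 (Spearman rho 0.89) and Tyrobp and Hcst of 0.79 (rho 0.81), and Trem2 and Tyrobp of 0.70 (rho 0.64), while Trem2 and Syk had -0.04 and Tyrobp and Inpp5d 0.24. These are descriptions over 10 points that share groups and cell depth within a group. Among 4056 tested genes with a mean of at least 30 CPM, the genes most like Trem2 were Acox3 (r = 0.985), a peroxisomal oxidase of branched fatty acids, Rasgrp3 (0.984), a Ras activator, and Ergic3 (0.97). Those most like Tyrobp were the lysosomal proteins Pld3 (0.978), Npc2 (0.962) and Plbd2 (0.952). Inpp5d was most like Aagab (0.987), Rtn4rl1 (0.983) and Laptm5 (0.983). Hcst was most like Klc4 (0.937), Grina (0.900) and Setd3 (0.883), Syk most like Zmat5 (0.946), Fnbp1 (0.916) and Gapvd1 (0.914), and Plcg2 most like Fbxw4 (0.938), Tgfbr2 (0.925) and Higd2a (0.922). The 3 nearest to Trem1 were Eif4e (0.946), Urm1 (0.939) and Fam207a (0.937).

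Within libraries, dividing cells were defined by UMIs of at least 3 of 8 cell cycle genes. In each of the 6 libraries with 20 or more such cells, their raw CPM of Tyrobp and Trem2 was below that of other cells. Dividing cells also had more UMIs, a median of 18770 against 12505 and 19133 against 13286 in vitro. Raw CPM is a share of all UMIs, so a lower value need not mean fewer UMIs of the gene per cell. Tyrobp stood at 2652 against 3498 and 2608 against 3555 raw CPM in vitro, and at 4347 against 5831 and 4820 against 6211 after 3 weeks. Cells with a UMI of Gpnmb, a gene of lipid-laden and damage-associated macrophages, held somewhat more Trem2 than the other cells, 3491 against 3021 and 3950 against 3602 raw CPM after 3 weeks and 1292 against 1118 and 1286 against 1105 in vitro. Inpp5d went the other way after 3 weeks, 102 against 141 and 89.3 against 119 raw CPM. Cells with a Gpnmb UMI made up 74.3% and 87.4% of in vitro cells. They also had more UMIs in all, a median of 14356 against 9858.5 and 14589 against 10387 in vitro. After 3 weeks these medians were 6908 against 5913 and 6698 against 5041, so the split also sorts cells by depth. Cells of a library are not replicates, so these values carry no test.

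The wider pathway was read from 6 lists of related genes, 85 in all, of which 80 were tested. Other receptors that pair with Tyrobp or Hcst split in 2 directions. Of 11 tested, 7 were higher and 2 lower in vitro than in adult cells, 9 higher and 1 lower after 1 day, 8 higher and 1 lower after 1 week, and 3 higher and 2 lower after 3 weeks. Over all genes the shares called higher and lower were 22.4% and 28.5% in vitro, 24.9% and 25.3% after 1 day, 15% and 13.6% after 1 week, and 17.9% and 17.5% after 3 weeks. Several of these genes were at or under 3 UMIs in adult libraries and passed the filter through other groups, so the counts are descriptions. The 2 that fell in vitro and after 3 weeks were Siglech and Clec5a. Siglech, itself a microglial marker, stood at 1169 and 885 CPM in adult, 119 and 203 CPM after 3 weeks and 0.385 and 0.0561 CPM in vitro. Clec5a stood at 127 and 123 CPM in adult, 94.4 and 55.7 CPM after 3 weeks and 31.1 and 30.1 CPM in vitro, 4.08-fold below adult (adjusted p = 1.97e-05, edgeR) and 1.67-fold below after 3 weeks (adjusted p = 0.0153).

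The 2 largest rises in vitro, among called genes of this list with a mean of at least 10 CPM, were Sirpb1c and Cd300ld. Sirpb1c had 1 UMI in adult and reached 24.2 and 21.0 CPM in vitro. Cd300ld had 3 UMIs in adult and reached 21.3 and 29.0 CPM in vitro. Sirpb1 and Pilrb genes have near-identical copies, so their split of reads is uncertain. The median log2 fold change of the list was 4.13 in vitro and 5.84 after 1 day, or 2.82 and 5.57 when counts of 3 or fewer were set to a floor of 3, against -0.11 and -0.06 over all genes. Neutrophil and monocyte markers were high in the same 1 day libraries. After neutrophil-high and monocyte-marker cells were removed, 9 were called higher and 1 lower after 1 day, and 6 higher and 2 lower after 1 week.

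Of 11 genes for lipoprotein ligands, sheddases and gamma-secretase, 4 were higher and 4 lower in vitro than in adult cells (median log2 fold change 0.17), and 4 higher and 1 lower after 3 weeks (0.39), where 50.8% and 35.4% of all genes were called. Apoe, a lipoprotein ligand of Trem2, went from 1027 and 670 CPM in adult to 27036 and 20517 CPM after 3 weeks and 73978 and 65392 CPM in vitro. These were rises of 28.0-fold (adjusted p = 1.03e-06, edgeR) and 82.1-fold (adjusted p = 6.32e-08). Clu, the other ligand, stood at 6.45 and 0.258 CPM in the adult libraries and at 0.0963 and 0.702 CPM in vitro. It was called lower in vitro (adjusted p = 0.0303), but 1 adult library lay below an in vitro one. Adam10, a sheddase that cuts Trem2 from the surface, was 1.66-fold lower in vitro (adjusted p = 0.0202), and not called after 3 weeks (0.39, adjusted p = 0.207). Adam17 was not called in either. In the gamma-secretase complex Ncstn fell in vitro (log2 fold change -1.04), and Aph1c (3.74 and 1.17) and Psen2 (1.73 and 1.08) rose in both.

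Of 30 downstream kinases, adaptors and effectors, 6 were higher and 12 lower in vitro than in adult cells (median log2 fold change -0.45 against -0.11 over all genes) and 4 were higher and 9 lower after 3 weeks (-0.09 against -0.03). Called genes were 50.8% and 35.4% of all genes in these comparisons, so the counts in both directions together do not set the list apart. Over all genes 22.4% and 17.9% were called higher and 28.5% and 17.5% lower. The lean of the list toward lower genes was not tested. Lyn, a Src family kinase, stood at 387 and 313 CPM in adult and 177 and 144 CPM in vitro, 2.18-fold lower (adjusted p = 0.000252, edgeR), and was not called after 3 weeks (-0.38, adjusted p = 0.0987). Vav1, an exchange factor downstream of Syk, was 1.63-fold lower in vitro (adjusted p = 0.00361) and lower by a log2 fold change of -0.59 after 3 weeks (adjusted p = 0.0152). Among genes with a mean of at least 10 CPM the largest falls in vitro were Fgr (-5.66) and Pik3r1 (-1.76), and Blnk fell in both (-0.73 and -1.21). Fgr was low in both groups, at 4.10 and 2.70 CPM in adult and with 4 UMIs in vitro. Its mean reached 10 CPM through the 1 day and 1 week slices, which averaged 32.3 and 12.2 CPM. Fyn rose in both, by 2.52 and 2.51 on the log2 scale, Akt2 rose in vitro (1.15) and Fgr rose after 3 weeks (1.33).

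Of 16 phosphatases, inhibitory adaptors and inhibitory receptors, the list that Inpp5d would join, 5 were higher and 7 lower in vitro (median log2 fold change -0.38), and 2 higher and 7 lower after 3 weeks (-0.37). Over all genes 22.4% were called higher and 28.5% lower in vitro, and 17.9% and 17.5% after 3 weeks. Ptpn6 (SHP-1) was 1.62-fold lower in vitro (adjusted p = 0.0161, edgeR) and 1.56-fold lower after 3 weeks (adjusted p = 0.0331). Sirpa, the receptor of the signal CD47, was 2.01-fold lower in vitro (adjusted p = 0.000148) and not called after 3 weeks (-0.25, adjusted p = 0.174). Siglece (-3.57 and -3.51) and Cd33 (-1.92 and -1.52) fell in both, and Dok3 fell after 3 weeks (-2.11). Among genes with a mean of at least 10 CPM the largest rises were Dok2 (7.05 and 5.29) and Lilrb4a (5.47 and 6.21). The last has a near-identical copy and its split of reads is uncertain. Lilrb4a stood at 3.15 and 6.83 CPM in adult and at 388 and 325 CPM after 3 weeks.

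Of the 5 other ITAM genes 2 were tested. Fcer1g, the ITAM adaptor of Fc receptors, stood at 3264 and 2825 CPM in adult and 4937 and 4740 CPM in vitro, 1.59-fold higher (adjusted p = 0.00241, edgeR), and was not called after 3 weeks (0.26, adjusted p = 0.172). Cd79b fell in both (-3.15 and -1.19). Clec7a was not analysed here.

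Genes known to need Trem2 for their induction in disease-associated microglia were mostly higher in slices than in adult cells. Of 10 tested, 8 were higher and none lower after 3 weeks than in adult cells (median log2 fold change 2.54 against -0.03 over all genes), while 4 were higher and 4 lower in vitro (-0.28 against -0.11). Between in vitro and 3 week slices, 7 were lower in vitro and none higher (-1.81 against -0.10). After 1 week 6 were higher and 1 lower than in adult cells (median 1.39), with 15% and 13.6% of all genes. Over all genes 17.9% were called higher and 17.5% lower after 3 weeks, 22.4% and 28.5% in vitro against adult, and 13.3% and 19.9% in vitro against 3 weeks. Cst7, a cathepsin inhibitor, went from 21.9 and 14.3 CPM in adult to 917 and 1669 CPM after 3 weeks, 70.9-fold higher (adjusted p = 2.71e-06, edgeR), and to 7.68 and 7.24 CPM in vitro, 2.44-fold lower (adjusted p = 0.00622). Lpl, the lipase of lipoprotein uptake, rose in both, from 17.3 and 27.3 CPM to 1125 and 1593 CPM after 3 weeks and to 423 and 593 CPM in vitro.

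Among the same genes Spp1 had the largest rise in both, with log2 fold changes of 8.74 after 3 weeks and 9.64 in vitro, though its 3 week libraries stood apart at 4391 and 1253 CPM. Csf1 (-3.32) and Cd9 (-2.64) had the largest falls in vitro among genes with a mean of at least 10 CPM. After 1 day 7 of the 10 genes were higher and 2 lower than in adult cells (median 1.96, with 24.9% and 25.3% of all genes), and 8 were higher and 2 lower after neutrophil-high and monocyte-marker cells were removed. Lpl was at 2645 and 2795 CPM after 1 day, its highest level of any group. Whether these levels depend on Trem2 was not tested, and neonatal slices differ from adult cells in age as well.

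**Figure D5:**
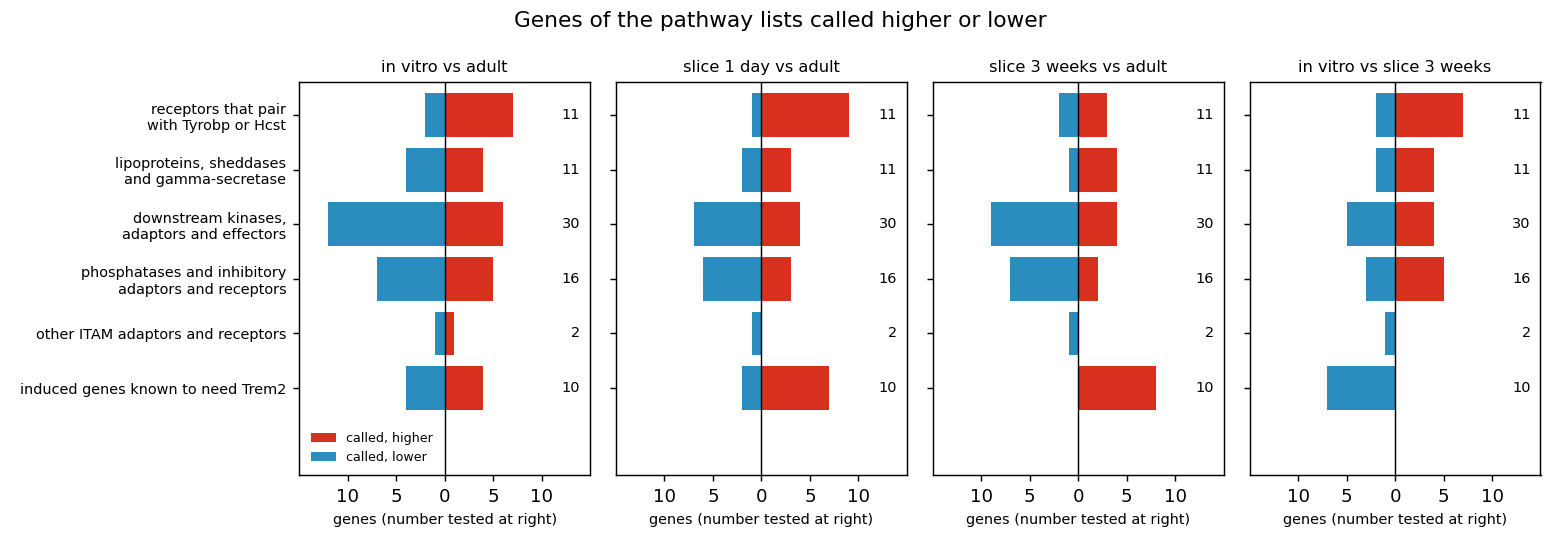
Number of genes of each pathway list called higher (red, right) or lower (blue, left) in 4 comparisons, with the number tested at the right edge. The genes known to need Trem2 are higher in 8 of 10 after 3 weeks against adult and lower in 7 of 10 in vitro against 3 weeks.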

How the data were processed

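The authors deposited UMI counts per gene and cell for each library, made with the 10X Genomics 3' kit v2 and, per the submitters' processing notes, Cell Ranger 1.3.0 and mm10. Counting was not given as strand-specific in the sources used here. Of 19637 barcodes, 578 were dropped for a mitochondrial share above 5%, fewer than 400 genes or a total above 30000; doublets were not called. The UMI ceiling and gene minimum can remove large or poor cells. The 13 symbols with more than 1 row were summed.

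Counts were summed over the cells of a library. One fit over 5 groups used edgeR 4.0.16 (R 4.3.3) with TMM scaling, filterByExpr with a minimum count of 10 (12157 genes) and the quasi-likelihood test. A gene was called at a Benjamini-Hochberg adjusted p under 0.05 and a fold over 1.5. Alternatives included DESeq2 1.42.0. On simulated in vitro and adult counts of 11709 genes, 100% of genes changed by 2 log2 units and 60% of those changed by 1 were called. Similarity used log2(CPM + 1). The members and lists, and the rule for named genes, were chosen with earlier results of these data known: all 7 members, the 3 genes most like each, 14 fixed pathway genes and the 2 largest rises and falls per list at a mean of at least 10 CPM; some genes that this rule names are not reported here. The removal of neutrophil-high and monocyte-marker cells was chosen after seeing the data.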

Additional observations from a re-analysis of the deposited data

How the results depend on the processing

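The fold changes of the 7 genes over 10 comparisons were recomputed under 21 other settings, which gave 1018 values. Of these 911 stayed on the same side of the call, 75 lost it, 32 gained it and none reversed a call. Scaling by library size alone moved the median log2 fold change of all genes by between -0.30 and 0.01, and left 2 genes called in vitro against adult in place of 4, none of them higher. Over all genes it called 2017 higher and 4718 lower there, against 2719 and 3461 with TMM. Without the filter on low counts 5 genes were called after 1 week against adult in place of 3. Leaving out 1 library at a time gave 2 to 3 called genes in vitro against adult, 3 to 5 after 1 day, 1 to 4 after 1 week and 2 to 4 after 3 weeks against adult, 2 to 4 between in vitro and 3 weeks, and 4 to 5 between 3 weeks and 1 day. With a lone library left in a group, its spread is assumed to be like that of the others. The count was 2 in vitro against adult without adult replicate 1, adult replicate 2 or in vitro replicate 1, 1 after 1 week without slice 1 week replicate 1, 2 after 1 week and 2 after 3 weeks without adult replicate 1, and 2 and 3 between in vitro and 3 weeks without in vitro replicates 2 and 1.

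The shared replicate numbers do not mark a pairing in the labels, and same-numbered libraries deviated together with correlations of only -0.13 to 0.12. With the replicate block the counts of called genes were 4, 4, 3, 4, 5 and 5 in the same order, as without it; 1 call was lost, Plcg2 between 1 week and 1 day (0.74, adjusted p = 0.0572). The planned removal of cells with 3 or more markers of other cell types was not run, since it leaves 3 cells in one 1 day library and 0 in one 1 week library. Counts here include Trem1. Depth limits Trem1 (1 to 100 UMIs where detected) and the 1 week slices (61 and 148 cells).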
